A study of Mus musculus with 9 samples.

Results

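The clusters named I1, I2, I3 and I4 are cholinergic interneurons of the mouse spinal cord that carry inhibitory neuron genes, and they were chosen here by the cluster names that the authors gave to single nuclei. They hold 3758 of 16042 cholinergic nuclei, out of 34231 annotated nuclei, with 1520 nuclei in I1, 780 in I2, 756 in I3 and 702 in I4. RNA of single nuclei was sequenced from cervical, thoracic and lumbar/sacral cord, with 3 libraries per region. Each library came from a pool of 4 mice aged 8 weeks, and the 3 regions of replicate 1 came from 2 males and 2 females, those of replicate 2 from 4 males and those of replicate 3 from 4 females. All mice came from the strain Chat-IRES-Cre::Sun1-sfGFP, in which Cre made from the Chat locus turns on a green nuclear envelope protein by which nuclei were sorted. Their genotype was Chat-iCre:+/wt for the driver and SUN-SfGFP:+/wt for the reporter. Nuclei that once expressed Cre carry the label for good, so sorted nuclei include some with no cholinergic genes. The comparison asks how these interneurons differ along the cord, with the 3 lumbar/sacral libraries set against the 6 cervical and thoracic libraries, called rostral here.

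Cholinergic interneurons lie in the intermediate and dorsal cord and around the central canal, and some of them also make GABA. Position along the cord is laid down in the embryo by the Hox genes, homeodomain transcription factors whose order on the chromosome follows the order of their expression from head to tail. Members with high numbers are expressed in the caudal cord, where they set the identity of the neurons that serve the hindlimb and pelvic organs.

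Levels are given in CPM, the corrected counts of a gene per 1000000 corrected counts of the sum over the nuclei of a library, or over the nuclei of a library and cluster. The deposited values had been corrected by the authors for depth with a model, separately in each library, so levels set side by side across libraries carry that step. The sums over I1 to I4 held 1755651 to 3617391 corrected counts per library, and a nucleus held a median of 6288.

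The cluster names were checked against marker genes. Pax2, a transcription factor of inhibitory spinal interneurons, lay at 189.7 to 327 CPM across the 9 libraries. Chat, the enzyme that makes acetylcholine, lay at 129 to 179 CPM and Slc5a7, the choline transporter, at 122 to 179.6 CPM. Of the markers of skeletal motor neurons, Isl1 lay at 0 to 1.96 CPM, Prph at 2.41 to 13.2 CPM and Tns1 at 1.71 to 5.06 CPM. All 10 listed markers summed to 500.1 to 612 CPM, with Rbfox3, at a mean of 336 CPM, the most abundant, against 977 to 1531 CPM in S1 to S3. Fbn2 and Zeb2, used as markers of visceral motor neurons, lay at 4.28 to 13.8 and 2.86 to 14.2 CPM. All 7 listed visceral markers summed to 905, 875 and 809.8 CPM in the lumbar/sacral libraries and 743 to 817 CPM in the rostral ones, most of it Nos1 (mean 616 CPM). In I2 the level of Chat was lower, at 32.1 to 77.0 CPM, against 167 to 242 CPM in I1. Slc17a6, the vesicular glutamate transporter of excitatory neurons, lay at 12.7, 9.51 and 8.05 CPM in the lumbar/sacral libraries and at 1.14 to 6.08 CPM in the rostral ones, too low to enter the test. The 14 oligodendrocyte markers summed to 55.8, 84.5 and 81.7 CPM in the lumbar/sacral libraries and 47.3 to 70.0 CPM in the rostral ones, with Mbp the most abundant and Cspg4 at 0. The 9 astrocyte markers, with Slc1a2 the most abundant and Aqp4 at 0 to 1.03 CPM, summed to 39.8 to 75.2 CPM. The 8 microglia and vascular markers in the matrix summed to 10.5 to 109 CPM, with P2ry12 the most abundant. Their part in the results was not tested, other than by the tests of the single genes.

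Some libraries stood apart or went against their labels. Hoxa9, expressed from the thoracic cord downward, lay at 29.6 CPM in cervical replicate 2, against 0.675 and 0.320 CPM in the other cervical libraries, and at 0.857 CPM in thoracic replicate 2, against 18.5 and 25.3 CPM in the other thoracic libraries. Hoxc5 showed the same, with 49.0 CPM in cervical replicate 2 against 12.2 and 9.59 CPM, and 7.14 CPM in thoracic replicate 2 against 54.4 and 50.2 CPM. The gene model of Hoxc5 (chromosome 15, 102967443 to 103017429) also spans Hoxc9, Hoxc8 and Hoxc6, and overlaps Hoxc10 (102966796 to 102971893). Which of these genes gave its counts was not tested. Cervical and thoracic replicate 2 are both rostral, so the comparison with lumbar/sacral cord holds them on the same side either way. The alternatives with region terms, and those against cervical or thoracic libraries alone, follow the labels and so depend on them. Malat1, a nuclear noncoding RNA, split the libraries otherwise, at 30612 to 35822 CPM in cervical replicates 1 and 3, thoracic replicate 1 and lumbar/sacral replicate 1, and at 82328 to 114551 CPM in the other 5. The first principal component of the sums over I1 to I4, with 64.3% of the variance, separated the same libraries. Nuclei of lumbar/sacral replicates 1 and 3 had the fewest corrected counts, with lumbar/sacral medians of 4101.5, 6344.5 and 4789 per library against 6167 to 16179.5 (cervical replicate 2) in the rostral ones. Mitochondrial RNA took 0.0387, 0.117 and 0.151% of the lumbar/sacral sums and 0.0657 to 0.319% of the rostral ones. In 13 of the 3758 nuclei the cell barcode also occurred in another library, and 33 barcodes of cholinergic nuclei occurred in 2 libraries. Sex cannot be told apart from the pool.

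The share of I1 to I4 among cholinergic nuclei was largest in the lumbar/sacral cord. It was 33.1, 31.0 and 27.7% there, and 15.0 to 23.2% with a median of 17.7% in the rostral libraries, with no overlap. The mean was 30.6% ± 2.74 (SD, n = 3) against 18.8% ± 3.42 (SD, n = 6), a difference of 11.8 points (exact permutation test, two-sided, p = 0.0119, the smallest that 84 groupings can give). Adjusted over the 5 shares tested the p was 0.0595, so the difference did not pass the threshold of 0.05. With groupings within replicate only, the exact permutation p was 0.037 (adjusted 0.185), the smallest that 27 groupings can give. How nuclei were sorted and kept also sets this share, and its part was not tested.

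Within I1 to I4, the 4 clusters took shares that overlapped between the groups. I1 took 39.6% ± 1.48 (SD, n = 3) in lumbar/sacral and 39.2% ± 6.61 (SD, n = 6) in rostral libraries (exact permutation p = 1). I2 took 19.3% ± 4.29 against 23.1% ± 3.70, a difference of -3.85 points (exact permutation p = 0.202, adjusted 0.337). That difference was -1.70 points without lumbar/sacral replicate 1 and -5.99 points without lumbar/sacral replicate 2. I3 took 20.5% ± 1.07 against 20.3% ± 2.55 (exact permutation p = 0.917), and I4 took 20.6% ± 1.97 against 17.3% ± 3.24 (exact permutation p = 0.155, adjusted 0.337). Cervical replicate 2, with 112 nuclei the smallest library, stood apart with 25.9% in I1, against 40.9 to 43.4% in the other 5 rostral libraries. Without it the difference in I1 was -2.28 points, against 0.393 with it. It was -0.178 without lumbar/sacral replicate 1. The difference in I3, 0.174 points, was -0.508 without cervical replicate 1, -0.278 without thoracic replicate 2 and -0.441 without lumbar/sacral replicate 1.

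**Figure D1:**
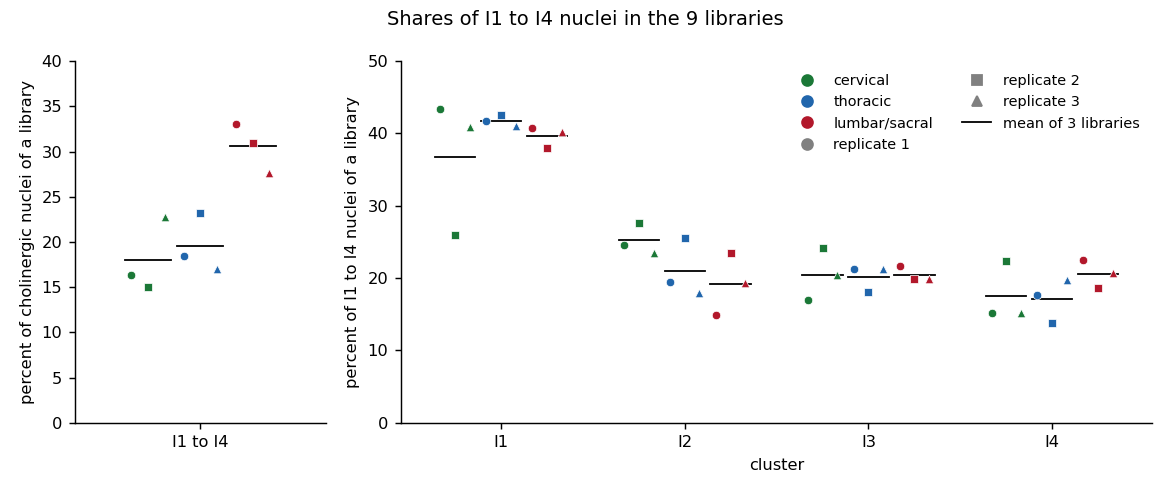
Share of nuclei by library, in percent: I1 to I4 among cholinergic nuclei, and each cluster among I1 to I4. Points are libraries, and bars are means of the 3 libraries of a region; the share of I1 to I4 among cholinergic nuclei is 27.7 to 33.1% in the lumbar/sacral and 15.0 to 23.2% in the rostral libraries.

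Over all I1 to I4 nuclei of a library, 1 gene differed between lumbar/sacral and rostral cord, Hoxd11 (ENSMUSG00000042499; chromosome 2, 74679557 to 74687016, GRCm38), a homeodomain transcription factor of the caudal cord. It was higher in all 3 lumbar/sacral libraries, at 14.1, 15.4 and 12.9 CPM, and was listed at 0 in each of the 6 rostral libraries. The groups did not overlap. The test was limma on log2(CPM + 5). It took in genes that reached 10 CPM in 3 or more sums, and a gene was called at a Benjamini-Hochberg adjusted p under 0.05. Of 9436 genes tested it called 1 higher (0.0106%) and 0 lower, with 180 at an unadjusted p under 0.05. The fitted log2 difference of Hoxd11 was 1.93 (SE 0.20, adjusted p = 0.0205), which depends on the pseudocount because a group was at 0. The count called was 0 with a pseudocount of 1, nuclei thinned to 3400 corrected counts, region terms, or either rostral region alone. Hoxd11 entered the test only through its lumbar/sacral values, so it had to differ. Its adjusted p was 0.140 without thoracic replicate 2 and 0.0503 without cervical replicate 3, and the count called was 0 without cervical replicate 3, thoracic replicate 2 or any 1 lumbar/sacral library (Hoxd11 then left the test in the last case). Without thoracic replicate 3 it was 3, with Thsd7b and Plcl1 lower.

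Few single nuclei had a count of Hoxd11. A corrected count of it was present in 46 of 856 (5.37%), 44 of 548 (8.03%) and 25 of 493 (5.07%) lumbar/sacral nuclei. With each nucleus thinned to 3400 corrected counts the shares were 3.63, 3.83 and 4.06%. No rostral nucleus had a count, which allows a share with a detected count of up to 0.651% (cervical replicate 1, 461 nuclei) to 2.68% (cervical replicate 2, 112 nuclei) for counting error alone. This bounds how often the gene was detected, and not how many nuclei express it. The median total per nucleus in these libraries was 6167 and 16179.5 corrected counts, against 4101.5, 6344.5 and 4789 in the lumbar/sacral ones. I1 nuclei had the lowest levels, with 5.40, 5.14 and 5.0 CPM, and I4 nuclei the highest, with 24.0, 35.8 and 19.2 CPM. Hoxd11 was also at 16.6, 26.2 and 11.1 CPM in lumbar/sacral I5 and I6 nuclei and at 33.8, 37.3 and 27.2 CPM in skeletal motor neurons, with 0 in each of their rostral libraries. Lumbar/sacral nuclei that should lack the gene were not at hand, and the part of free RNA was not tested.

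Among the 39 Hox genes listed, 28 were in the matrix, 12 were tested and 1 was called. The log2 difference of those tested ran from -0.13 to 1.93, with a median of 0.21 against 0.01 over all genes tested. Of the 12 tested, 2 lay higher in every lumbar/sacral library than in any rostral one, beside 131 genes (1.39%) without overlap in either direction among all those tested. Over the 28 in the matrix, 16 of them too low to be tested, 8 lay higher and 0 lay lower, beside 150 higher (0.734%) and 121 lower (0.592%) of the 20433 features above 0. Hoxc5 lay at 76.3, 74.7 and 82.5 CPM in the lumbar/sacral libraries and at 7.14 to 54.4 with a median of 30.6 CPM in the rostral ones, with no overlap, and was not called (log2 difference 1.54, limma, adjusted p = 1.0). Hoxa10 lay at 7.74, 16.5 and 8.05 CPM against 0 to 2.30 with a median of 0.342 CPM, and Hoxd9 at 4.15, 3.36 and 2.01 CPM against 0 to 0.675 CPM. Both were too low to be tested. Along with Hoxd11, Hoxd10, Hoxc11, Hoxc12 and Hoxc13 were listed at 0 in all 6 rostral libraries and above 0 in all 3 lumbar/sacral ones. Hoxd10 was at 2.76, 3.08 and 2.41 CPM, Hoxc11 at 1.66, 3.92 and 1.61 CPM, Hoxc13 at 1.38, 1.40 and 1.21 CPM and Hoxc12 at 0.553, 0.280 and 0.402 CPM. Hotair, the noncoding RNA of the caudal HoxC genes, was at 0.829, 1.96 and 1.21 CPM and at 0 in the rostral libraries. Of all 20433 features above 0, 20 were above 0 in every lumbar/sacral and at 0 in every rostral library, and 3 the other way round (5330413P13Rik, Csf3r and Hspb8, named after their values were seen), from summed totals of 9676241 and 16436634 corrected counts. Members of the front of the complexes, such as Hoxb3, which lay at 57.9 to 86.2 CPM and 61.5 to 114 CPM, overlapped between the groups. Hoxb4, Hoxb5 and Hoxb6 also overlapped.

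**Figure D2:**
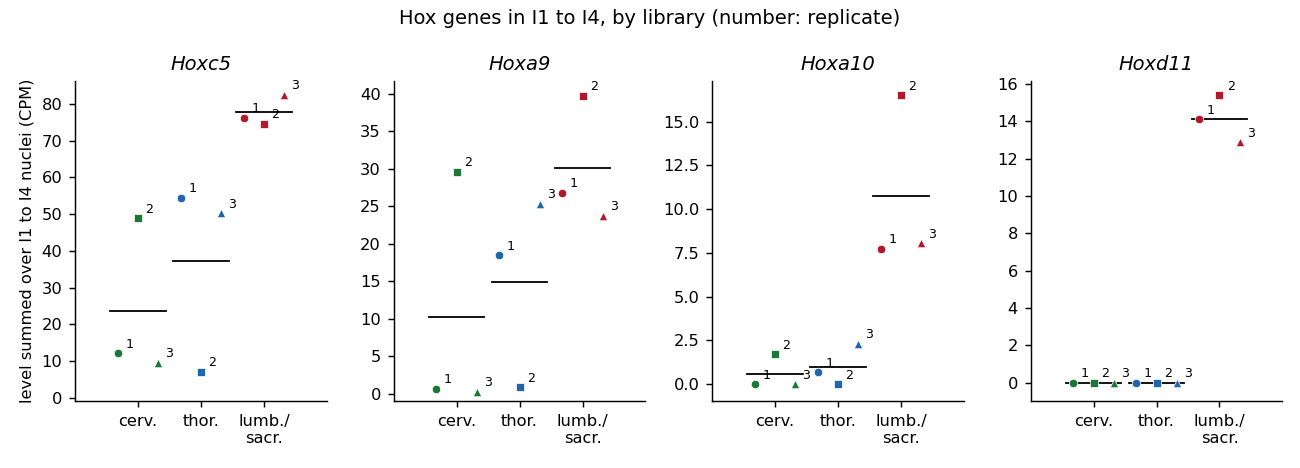
Levels of Hox genes in I1 to I4 by library, in CPM of corrected counts. Each point is a library, numbered by replicate, and bars are means of the 3 libraries of a region; Hoxd11 is at 12.9 to 15.4 CPM in the lumbar/sacral libraries and at 0 in all rostral ones, and Hoxc5 is low in thoracic replicate 2 (7.14 CPM) and high in cervical replicate 2 (49.0 CPM).

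Hoxd11, Ebf1 and Plcl1 were the genes called in more than 1 of the 4 clusters, so their promoters are shown, from RefSeq (GRCm38.p6), as 250 bases before to 50 after each start. Capitals mark CG pairs. The promoters of Hoxd11 hold 4 and 25 CG pairs, that of Plcl1 30, and those of Ebf1 9 and 17, against a median of 7 over 32851 promoters. All are on the + strand.
Hoxd11 chr2:74679308-74679607 (+ strand): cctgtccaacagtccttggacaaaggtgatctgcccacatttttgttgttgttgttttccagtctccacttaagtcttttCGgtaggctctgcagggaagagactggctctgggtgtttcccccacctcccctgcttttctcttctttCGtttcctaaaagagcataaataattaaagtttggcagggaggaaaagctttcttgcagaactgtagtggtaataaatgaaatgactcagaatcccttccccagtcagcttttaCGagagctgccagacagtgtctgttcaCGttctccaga
Hoxd11 chr2:74682073-74682372 (+ strand): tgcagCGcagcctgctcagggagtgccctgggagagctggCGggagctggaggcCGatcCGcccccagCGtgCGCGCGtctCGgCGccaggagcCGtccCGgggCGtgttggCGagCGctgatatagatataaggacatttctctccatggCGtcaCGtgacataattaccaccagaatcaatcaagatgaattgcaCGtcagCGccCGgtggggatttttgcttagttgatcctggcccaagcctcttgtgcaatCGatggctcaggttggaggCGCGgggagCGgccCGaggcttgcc
Ebf1 chr11:44617850-44618149 (+ strand): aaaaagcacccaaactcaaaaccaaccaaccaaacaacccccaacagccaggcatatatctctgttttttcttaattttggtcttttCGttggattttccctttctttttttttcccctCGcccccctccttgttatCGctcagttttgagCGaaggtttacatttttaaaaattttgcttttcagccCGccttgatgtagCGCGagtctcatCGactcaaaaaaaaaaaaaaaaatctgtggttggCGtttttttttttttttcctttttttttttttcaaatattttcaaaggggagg
Ebf1 chr11:44619978-44620277 (+ strand): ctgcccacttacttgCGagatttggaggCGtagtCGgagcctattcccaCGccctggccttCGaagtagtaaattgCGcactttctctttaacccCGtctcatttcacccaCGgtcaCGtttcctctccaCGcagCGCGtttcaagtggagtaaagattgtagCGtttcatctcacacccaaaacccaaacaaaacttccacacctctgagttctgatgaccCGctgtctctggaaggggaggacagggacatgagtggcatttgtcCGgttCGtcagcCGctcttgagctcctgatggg
Plcl1 chr1:55405696-55405995 (+ strand): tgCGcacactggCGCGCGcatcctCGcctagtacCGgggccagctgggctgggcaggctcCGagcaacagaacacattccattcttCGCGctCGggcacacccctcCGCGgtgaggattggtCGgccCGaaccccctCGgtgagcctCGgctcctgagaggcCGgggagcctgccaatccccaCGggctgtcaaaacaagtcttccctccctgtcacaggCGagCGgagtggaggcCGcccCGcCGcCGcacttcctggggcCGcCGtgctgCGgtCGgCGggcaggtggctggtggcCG
The palindrome that EBF factors bind, TCCC and GGGA with any 2 bases between them, is in none of these 5 windows. It was present in 297 of the 32851 promoters (0.904%, both strands), in 0 of 39 promoters of 27 genes that were higher in lumbar/sacral I2 and in 0 of 19 promoters of 16 genes that were lower. This describes the letters of these windows only.

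With replicate as a term of the fit, which compares regions within a pool, 13 genes were called over I1 to I4 (0.138%), 3 higher and 10 lower. The genes called only then were chosen after their values were seen. Higher were Hoxd11, Rmst, a noncoding RNA of neural progenitors, and Sorcs3, a sorting receptor. Rmst was at 414, 255 and 285 CPM against 96.8 to 233 with a median of 166 CPM, with no overlap (log2 difference 0.97, limma, adjusted p = 1.0, with replicate 0.0402). Sorcs3 was at 449, 333 and 359 CPM against 173 to 287 with a median of 218 CPM, also with no overlap (adjusted p with replicate 0.0312). The 10 lower genes were 6 mitochondrially encoded genes and Plcl1, Thsd7b, Tmtc2 and Chrm3. Chrm3, the M3 muscarinic acetylcholine receptor, was at 135, 104 and 149 CPM against 164 to 257 with a median of 226 CPM (log2 difference -0.75, adjusted p = 0.643, with replicate 0.0312). The clusters did not agree in Chrm3, with log2 differences of -0.70 in I1, -0.84 in I2, 0.38 in I3 and 0.89 in I4 (difference among the clusters, adjusted p = 0.00323). Plcl1, a relative of phospholipase C without its activity that binds partners of the GABA-A receptor, was at 122, 88.7 and 124 CPM against 191 to 333 with a median of 273 CPM (0.417 times the mean; adjusted p = 0.164, with replicate 0.0312). A setting chosen after seeing the data, with the Malat1 level as a term, called 18 (0.191%), 12 higher and 6 lower. Without cervical replicate 2 and thoracic replicate 2 the count was 0, and it was 2 among the libraries low in Malat1 and 0 among those high in it.

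Of the 25 gene lists, those other than the Hox genes had no member called over I1 to I4. The 8 GABA and glycine genes, such as Gad1 and Slc32a1, had a median log2 difference of 0.00, and the 4 tested cholinergic genes one of -0.01. The 16 tested transcription factors of spinal interneurons had a median of 0.06, the 10 tested factors of birth time one of 0.11 and the 8 tested TALE cofactors of Hox proteins one of 0.08. The medians were 0.08 over 45 potassium channel genes, 0.03 over 33 calcium, sodium and HCN channel genes and -0.26 over 2 nicotinic receptor genes. For receptors they were 0.03 over 31 ionotropic and -0.05 over 16 metabotropic and monoamine receptor genes. The 44 tested axon guidance genes had a median of 0.05, the 34 synaptic organizer genes one of 0.01 and the 23 cadherins and protocadherins one of -0.04. The median was 0.01 over 12 neuropeptides and granins, -0.01 over 4 immediate early genes, 0.07 over 33 ribosomal protein genes and 0.52 over 4 noncoding transcripts of the Hox complexes. Marker lists of other cells had medians of 0.34 (3 oligodendrocyte genes), -0.20 (1 astrocyte gene), 0.31 (2 microglia and vascular genes), 0.12 (5 skeletal motor neuron genes) and 0.15 (5 visceral motor neuron genes), and no vesicular glutamate transporter was tested. The 10 mitochondrially encoded genes that were tested had 0 called and a median of -0.97, beside the mitochondrial shares given above.

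The I2 nuclei differed most along the cord. Lumbar/sacral I2 nuclei had more RNA of Ebf1, a transcription factor of the early B cell factor family, of the guidance molecules Ephb1, Robo1 and Sema5a, and of the ion channels Asic2, Kcnh7 and Cacna1e. They had less of Sdk2, an adhesion molecule of synaptic layers, of Man1a, a mannosidase of the Golgi apparatus, and of Tmtc2, a mannosyltransferase of the endoplasmic reticulum. Of 9589 genes tested in I2, limma called 30 higher (0.313%) and 18 lower (0.188%), together 0.501%, with 620 at an unadjusted p under 0.05. With sums scaled by the median of ratios it called 30 higher and 11 lower. Of the 30, 10 passed the filter on low values only through their lumbar/sacral libraries, and of the 18, 2 only through their rostral ones, so these had to differ. The groups did not overlap in any of the 48, beside 395 genes (4.12%) without overlap among all tested. The number of I2 nuclei per library was 128, 129 and 95 in the lumbar/sacral and 31 to 113 in the rostral libraries.

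Frem1, an extracellular matrix protein of basement membranes, had the largest fitted log2 difference in I2 at a pseudocount of 5, on which it depends. It was at 46.5, 44.5 and 52.6 CPM in the lumbar/sacral libraries, and in the rostral ones it was at 1.09 CPM in thoracic replicate 2 and at 0 in the other 5 (log2 difference 3.35, SE 0.28, adjusted p = 6.04e-05). Ebf1 (ENSMUSG00000057098; chromosome 11, 44617317 to 45008091), whose promoters are shown above, was at 308, 438 and 338 CPM against 34.4 to 77.1 with a median of 53.3 CPM. Every lumbar/sacral library lay above every rostral one, and the mean was 6.64 times the rostral mean (log2 difference 2.64, SE 0.21, adjusted p = 6.04e-05). Palld, which binds actin, was at 78.8, 36.3 and 32.4 CPM against 0 to 7.37 with a median of 3.67 CPM (log2 difference 2.60, SE 0.36, adjusted p = 0.00528). Hoxd11 was at 19.7, 14 and 18.2 CPM and listed at 0 in the rostral libraries (adjusted p = 0.00720), and Hoxd11, Frem1 and Palld, all under 10 CPM in every rostral library, entered the test only through their lumbar/sacral values, so each had to differ.

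Guidance molecules were among the genes higher in lumbar/sacral I2. Of 46 tested axon guidance genes 3 were called, all higher, beside the 30 of 9589 (0.313%) over all genes, and the median log2 difference of the list was 0.12 against -0.03 over all genes tested. Ephb1, a receptor for ephrin-B ligands, was at 419, 368 and 328 CPM against 59.6 to 105 with a median of 79.4 CPM (4.49-fold; log2 difference 2.12, SE 0.17, adjusted p = 6.04e-05). Sema5a, a membrane-bound semaphorin, was at 57.3, 85.5 and 58.7 CPM against 2.46 to 22.6 with a median of 11 CPM (5.77-fold; log2 difference 2.20, SE 0.35, adjusted p = 0.0119, and 0.159 without lumbar/sacral replicate 2 and 0.0918 without lumbar/sacral replicate 3). Robo1, a receptor for Slit proteins, was at 623, 407 and 419 CPM against 133 to 251 with a median of 182 CPM (2.54-fold; adjusted p = 0.00761). Nell2, a secreted protein that binds Robo3, was named after its values were seen. It was at 138, 123 and 113 CPM against 23.7 to 33.0 with a median of 27.9 CPM (4.45-fold; adjusted p = 6.04e-05). In each of these genes the 3 lumbar/sacral libraries lay above all 6 rostral ones.

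Single ion channel genes were also higher, beside 30 of 9589 (0.313%) called higher over all genes tested in I2. Asic2, a proton-gated sodium channel, was at 2612, 2152 and 2306 CPM against 545 to 892 with a median of 674 CPM (3.43-fold; log2 difference 1.78, SE 0.16, adjusted p = 7.18e-05). Kcnh7, a voltage-gated potassium channel of the ERG family and the 1 called of 43 potassium channel genes, was at 725, 395 and 601 CPM against 78.1 to 198 with a median of 125 CPM (4.36-fold; adjusted p = 0.00431). Cacna1e, a voltage-gated calcium channel and the 1 called of 33 calcium, sodium and HCN channel genes, was at 158, 117 and 139.7 CPM against 23.7 to 65.8 with a median of 42.0 CPM (adjusted p = 0.0154, and 0.122 without lumbar/sacral replicate 3, 0.0940 without lumbar/sacral replicate 1 and 0.0920 without lumbar/sacral replicate 2). Nos1, which makes nitric oxide, and Prkg1, a kinase activated by cyclic GMP, were among the higher genes. Nos1 was at 168, 213 and 205 CPM against 23.7 to 89.1 with a median of 40.1 CPM (4.16-fold; adjusted p = 0.00761, and 0.0920 without lumbar/sacral replicate 2 and 0.0840 without lumbar/sacral replicate 3). Prkg1 was at 429.7, 446 and 318 CPM against 47.3 to 146 with a median of 108 CPM (4.09-fold; adjusted p = 0.0101, and 0.109 without lumbar/sacral replicate 2). Nos1 and Sema5a are the 2 called of 4 tested genes in the list of visceral motor neuron markers, beside the 0.313% over all genes. The 7 members of that list summed to 283, 348 and 316 CPM in the lumbar/sacral libraries and 50.7 to 140.2 CPM in the rostral ones, most of it Nos1. Their part was not tested, and the markers Fbn2 and Zeb2 reached at most 28.7 and 30.8 CPM in I2.

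Of the listed genes of inhibitory and cholinergic transmission, Slc6a5 and Glra3 were called in I2. Over all genes tested there, 30 of 9589 (0.313%) were called higher. Neither call held whichever library was left out. The lumbar/sacral difference of both was called as unequal among the 4 clusters (limma, adjusted p = 0.00033 for Slc6a5 and 7.83e-06 for Glra3). Slc6a5, the glycine transporter of glycinergic neurons and the 1 called of 8 GABA and glycine genes, was at 44.8, 55.0 and 40.5 CPM against 12.3 to 22.8 with a median of 18.8 CPM (2.54-fold; adjusted p = 0.0418). The call was lost without any 1 library other than thoracic replicate 3, with adjusted p = 0.332 without lumbar/sacral replicate 2, 0.169 without lumbar/sacral replicate 1, 0.164 without lumbar/sacral replicate 3, 0.0887 without cervical replicate 1, 0.0779 without thoracic replicate 1, 0.0757 without cervical replicate 3, 0.0651 without cervical replicate 2 and 0.0558 without thoracic replicate 2. Glra3, a glycine receptor subunit and the 1 called of 30 ionotropic receptor genes, was at 34.0, 29.3 and 34.4 CPM against 0 to 14.7 with a median of 4.39 CPM (adjusted p = 0.0446). It entered the test through its lumbar/sacral values, since most rostral libraries were under 10 CPM. It too was lost without any 1 library other than thoracic replicate 3, with adjusted p = 0.280 without lumbar/sacral replicate 3, 0.228 without lumbar/sacral replicate 2, 0.184 without lumbar/sacral replicate 1, 0.0922 without cervical replicate 2, 0.0841 without thoracic replicate 2, 0.0712 without thoracic replicate 1, 0.0698 without cervical replicate 1 and 0.0660 without cervical replicate 3. Of the 4 tested cholinergic genes 0 were called, with a median of 0.41. Slc5a7 lay at 59.1, 70.2 and 70.9 CPM against 11.8 to 41.1 with a median of 15.8 CPM (adjusted p = 0.0877, with replicate as a term 0.0440). It was the 1 cholinergic gene called among the clusters (limma, adjusted p = 0.000183). Its log2 differences were -0.12 in I1, 1.51 in I2, -0.08 in I3 and 0.06 in I4. It also differed between I1 to I4 (0.10) and I5 and I6 (-0.56; limma, adjusted p = 0.00551). Chat lay at 64.5, 67.9 and 68.8 CPM against 32.1 to 77.0 with a median of 41.4 CPM, and the groups overlapped (adjusted p = 0.667). Penk, the precursor of enkephalins, lay at 16.1, 44.5 and 26.3 CPM against 1.33 to 10.9 with a median of 4.33 CPM (adjusted p = 0.0638, with replicate 0.0287). It too entered the test only through its lumbar/sacral values.

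**Figure D3:**
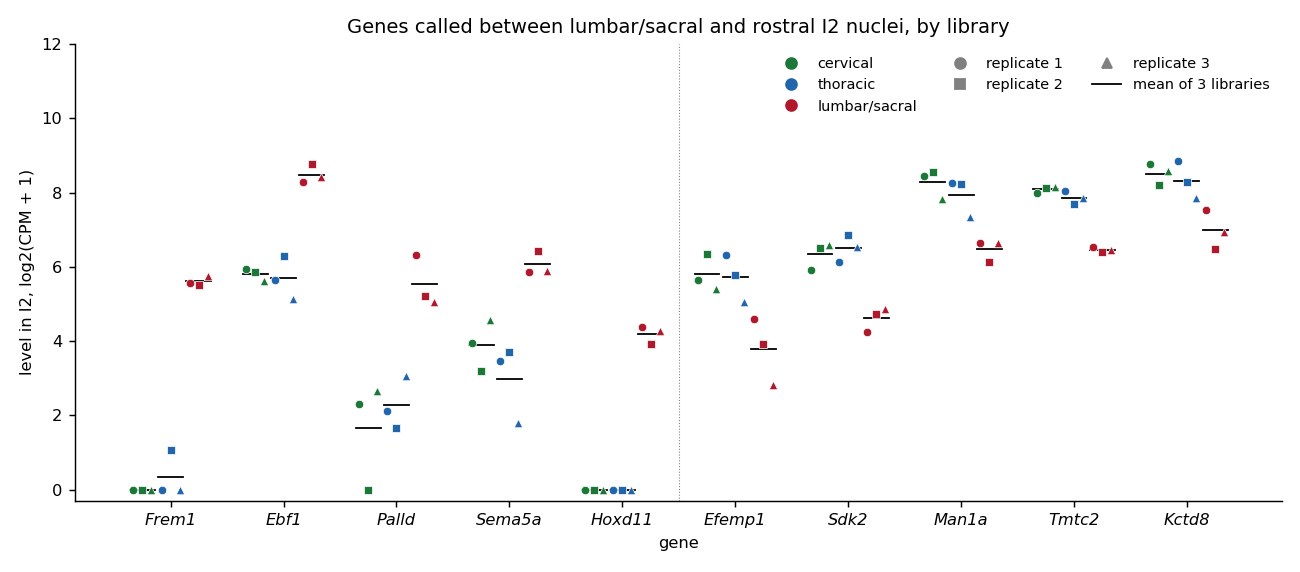
Levels of genes in I2 by library, as log2(CPM + 1), with the 5 most changed genes of each direction. Points are libraries, coloured by region, with bars at the mean of 3; Ebf1 is at 308 to 438 CPM in the lumbar/sacral and at 34.4 to 77.1 CPM in the rostral libraries, and Sdk2 at 17.9 to 28.3 against 59.5 to 115 CPM.

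Of the genes lower in lumbar/sacral I2, Efemp1, an extracellular matrix glycoprotein, was at 23.3, 14 and 6.07 CPM against 31.9 to 80.1 with a median of 51.6 CPM (0.258 times the mean; adjusted p = 0.0396). It passed the filter on low values only through its rostral libraries, so it had to differ. Its adjusted p was 0.270 without lumbar/sacral replicate 3, 0.199 without lumbar/sacral replicate 2, 0.0964 without thoracic replicate 1, 0.0837 without cervical replicate 2, 0.0784 without thoracic replicate 2, 0.0740 without cervical replicate 1 and 0.0549 without cervical replicate 3. Sdk2 was at 17.9, 25.8 and 28.3 CPM against 59.5 to 115 with a median of 90.7 CPM (0.276 times the mean; log2 difference -1.65, SE 0.22, adjusted p = 0.00357). Man1a, which trims sugar chains, was at 98.5, 69.1 and 99.2 CPM against 159.7 to 374 with a median of 303 CPM (0.311 times the mean; adjusted p = 0.00761, and 0.0920 without lumbar/sacral replicate 2). Tmtc2 was at 91.3, 83.1 and 87.1 CPM against 204 to 283 with a median of 256 CPM (0.347 times the mean; log2 difference -1.47, SE 0.14, adjusted p = 0.000105). Kctd8, an auxiliary subunit of GABA-B receptors, was at 184, 87.8 and 121 CPM against 228 to 458 with a median of 346 CPM (0.375 times the mean; adjusted p = 0.0188, and 0.188 without lumbar/sacral replicate 2 and 0.136 without lumbar/sacral replicate 3). In all 5 the lumbar/sacral libraries lay below every rostral one. Over all genes tested in I2, 18 of 9589 (0.188%) were called lower. Lrrtm3, a postsynaptic adhesion protein and the 1 called of 32 synaptic organizer genes, was at 301, 249 and 192 CPM against 361 to 676 with a median of 539 CPM (log2 difference -1.09, adjusted p = 0.0407; 0.328 without lumbar/sacral replicate 3, 0.20 without lumbar/sacral replicate 2, 0.0940 without thoracic replicate 1, 0.0854 without cervical replicate 1, 0.0781 without cervical replicate 3, 0.0742 without cervical replicate 2 and 0.0527 without lumbar/sacral replicate 1). Mpped2, a phosphodiesterase used as a marker of these interneurons and named here after its values were seen, was at 78.8, 71.4 and 70.9 CPM against 112 to 173 with a median of 142 CPM (adjusted p = 0.0245; 0.188 without lumbar/sacral replicate 2, 0.164 without lumbar/sacral replicate 3, 0.0727 without lumbar/sacral replicate 1, 0.0630 without thoracic replicate 1 and 0.0522 without cervical replicate 1).

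The other lists, 17 of 25, had no member called in I2. With replicate as a term, some of these lists had members called. Higher were 1 spinal interneuron factor, 1 cholinergic gene, 2 neuropeptides or granins and 1 metabotropic or monoamine receptor gene. Lower were 1 spinal interneuron factor, 2 metabotropic or monoamine receptor genes, 2 cadherins and 1 skeletal motor neuron marker. That fit also called 4 higher and 1 lower potassium channel genes, and 1 higher and 2 lower calcium, sodium and HCN channel genes. Calls in I2 numbered 12 without lumbar/sacral replicate 2, 15 without lumbar/sacral replicate 3, 33 without lumbar/sacral replicate 1 and 34 without thoracic replicate 1, against 48 with all libraries and 62 without thoracic replicate 3. In 9 of the 30 higher and 3 of the 18 lower genes the call was kept whichever library was left out. With replicate as a term 123 genes were called (1.28%), and with the Malat1 level as a term 199 (2.08%), and all 48 were among each. With nuclei thinned the count was 30 (18 higher and 12 lower). It was 21 against cervical and 20 against thoracic libraries alone, and 32 (20 higher and 12 lower) among the 5 libraries high in Malat1. Without cervical replicate 2 and thoracic replicate 2 the count was 25, and it was 16 among the 4 libraries low in Malat1, where the lone lumbar/sacral library was assumed to vary like the others. The 9 astrocyte markers summed to 50.1, 42.1 and 52.6 CPM in the lumbar/sacral libraries and 20.3 to 31.9 CPM in the rostral ones, with Slc1a2 the most abundant and Fgfr3 at 0, and their part was not tested.

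Single I2 nuclei were spread widely in Asic2. With every nucleus thinned to 3400 corrected counts, the median was 4 in each lumbar/sacral library and 1 to 2 in the rostral ones. At least 8 corrected counts of Asic2, a limit chosen after the values were seen, were present in 46 of 128 (35.9%), 42 of 129 (32.6%) and 37 of 95 (38.9%) lumbar/sacral I2 nuclei, and in 3.88 to 9.09% of rostral I2 nuclei. Counts within 2 of the limit were found in 14.1, 14 and 15.8% of lumbar/sacral I2 nuclei. I3 and I4 nuclei reached 8 counts in at most 8.26 and 10.4% in any library, and I1 nuclei in 11 to 38.1%. Outside I1 to I4, nuclei of I5 and I6 reached it in 13.4, 9.26 and 13.3% in the lumbar/sacral and in 0 to 2.17% in the rostral libraries. Their sums held 892, 712 and 755 CPM of Asic2 against 220.3 to 374 with a median of 285 CPM, with no overlap (log2 difference 1.45, limma, adjusted p = 0.00604), so the larger share was not found in I2 alone. In S1 to S3 the share was 28.7, 16.8 and 14.6% in the lumbar/sacral and 30.1 to 52.2% in the rostral libraries.

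The lumbar/sacral I2 nuclei on the 2 sides of this limit differed in some of the genes above and not in others, given here as a description with no test. Kcnh7 averaged 1094 CPM in the 125 nuclei with at least 8 counts and 281 CPM in the 227 others, after thinning. Ephb1 averaged 579 and 264 CPM, Nell2 235 and 72.6 CPM, and Frem1 87.1 and 25.9 CPM. Among the genes that were lower in lumbar/sacral I2, Thsd7b, a membrane protein with thrombospondin repeats, averaged 179 and 876 CPM and Tmtc2 14.1 and 129.6 CPM. Nuclei high in Asic2 thus held more of the first 4 genes and less of the last 2. Ebf1 averaged 388 and 384 CPM, and Nos1 184 and 196 CPM. Rostral I2 nuclei under the limit, 405 in number, averaged 47.9 CPM of Ebf1, 49.4 CPM of Nos1 and 122 CPM of Kcnh7. The 23 rostral I2 nuclei that reached it averaged 269 CPM of Kcnh7, and 192 CPM of Ephb1 against 74.1, 857 CPM of Thsd7b against 1649, 38.4 CPM of Tmtc2 against 263 and 12.8 CPM of Nell2 against 28.3 in those under the limit. Among the 23, a count of Nell2 was present in 4.35%, all in thoracic replicate 1, and a count of Tmtc2 in 13.0%. The levels of Nell2 and Tmtc2 there thus rest on very few counts. Frem1 was at 0 on both sides. Ebf1 averaged 102 CPM and Nos1 76.7 CPM in the 23, which were 2 to 5 nuclei per library. Plcl1, also lower in lumbar/sacral I2, did not split alike in the 2 groups. It averaged 136 CPM at the limit and 303 CPM under it in lumbar/sacral I2, and 703 and 512 CPM in rostral I2. Pax2 averaged 228 and 185 CPM on the 2 sides in lumbar/sacral I2, and Tns1 was at 0 on both. A corrected count of Ebf1 was present, after thinning, in 39.8, 41.1 and 38.9% of lumbar/sacral and in 7.27 to 16.5% of rostral I2 nuclei. A larger share of such nuclei and a change within nuclei cannot be told apart from the sums.

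In I4, 5 of 9807 genes were called (0.051%), 2 higher (0.0204%) and 3 lower (0.0306%), with 259 at an unadjusted p under 0.05. With sums scaled by the median of ratios 2 were higher and 1 lower. Groups did not overlap in 166 genes (1.69%). Plcl1 (ENSMUSG00000038349; chromosome 1, 55405921 to 55754285) had the lowest p. It was at 42.1, 38.8 and 36.5 CPM in the lumbar/sacral libraries against 138 to 254 with a median of 189 CPM. Every lumbar/sacral library lay below every rostral one (0.20 times the mean; log2 difference -2.15, SE 0.21, adjusted p = 0.000781), and the call was kept in all 9 cases with a library left out. Tmem132d, a membrane protein of the nervous system, was at 157, 142 and 138 CPM against 277 to 442 with a median of 312 CPM (0.444 times the mean; adjusted p = 0.0174, and 0.299 without lumbar/sacral replicate 3, 0.268 without lumbar/sacral replicate 2, 0.111 without lumbar/sacral replicate 1 and 0.0579 without cervical replicate 1). Crim1, a membrane protein that binds bone morphogenetic proteins, was at 132, 122 and 125 CPM against 203 to 256 with a median of 238 CPM (0.545 times the mean; adjusted p = 0.0474, and 0.606 without lumbar/sacral replicate 2, 0.463 without lumbar/sacral replicate 3, 0.286 without lumbar/sacral replicate 1, 0.120 without thoracic replicate 1, 0.114 without thoracic replicate 2, 0.107 without thoracic replicate 3, 0.102 without cervical replicate 3 and 0.0975 without cervical replicate 1). Higher were Hoxd11, at 24.0, 35.8 and 19.2 CPM and listed at 0 in the rostral libraries (adjusted p = 0.00844), and Ebf1. Hoxd11 entered the test only through its lumbar/sacral values, so it had to differ. Ebf1 was at 530.0, 499 and 508 CPM against 168 to 260.4 with a median of 219.5 CPM, with no overlap (2.35-fold; log2 difference 1.23, SE 0.15, adjusted p = 0.00677, and 0.0916 without lumbar/sacral replicate 1, 0.0888 without lumbar/sacral replicate 3 and 0.0780 without lumbar/sacral replicate 2). The count called was 1 without any 1 lumbar/sacral library and 3 without cervical replicate 1. It was 23 with replicate as a term (0.235%), 69 with the Malat1 level as a term (0.704%), and 0 and 19 among the libraries low and high in Malat1.

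In I3, 3 of 9454 genes were called (0.0317%), 1 higher (0.0106%) and 2 lower (0.0212%), with 187 at an unadjusted p under 0.05. With sums scaled by the median of ratios, nuclei thinned, a pseudocount of 1 or region terms, 0 were called. Groups did not overlap in 144 genes (1.52%). Plcl1 was at 9.41, 2.91 and 10.6 CPM against 29.6 to 78.9 with a median of 65.7 CPM, with no overlap (0.131 times the mean; log2 difference -2.31, SE 0.34, adjusted p = 0.0472). It passed the filter on low values only through its rostral libraries, so it had to differ. Bcl2, which protects cells from apoptosis, was at 39.0, 39.3 and 46.7 CPM against 78.9 to 115 with a median of 101 CPM, also with no overlap (0.413 times the mean; log2 difference -1.18, SE 0.18, adjusted p = 0.0472). Hoxd11 was higher, at 16.1, 17.5 and 17.0 CPM, and listed at 0 in the rostral libraries (adjusted p = 0.0472). It entered the test only through its lumbar/sacral values, so it had to differ. Without thoracic replicate 3 only Plcl1 was called, and without any other single library the count was 0, with an adjusted p of Plcl1 of 0.559 without lumbar/sacral replicate 2, 0.338 without lumbar/sacral replicate 1, 0.209 without lumbar/sacral replicate 3, 0.148 without cervical replicate 3, 0.144 without thoracic replicate 1, 0.128 without cervical replicate 1, 0.115 without cervical replicate 2 and 0.0586 without thoracic replicate 2. That of Bcl2 was 0.585 without lumbar/sacral replicate 1, 0.559 without lumbar/sacral replicate 2, 0.209 without lumbar/sacral replicate 3, 0.144 without thoracic replicate 1, 0.128 without cervical replicate 1, 0.118 without thoracic replicate 2, 0.115 without cervical replicate 2, 0.0943 without thoracic replicate 3 and 0.0793 without cervical replicate 3. That of Hoxd11 was 0.148 without cervical replicate 3, 0.144 without thoracic replicate 1, 0.128 without cervical replicate 1, 0.124 without thoracic replicate 2, 0.115 without cervical replicate 2 and 0.0943 without thoracic replicate 3. The count was 0 without cervical replicate 2 and thoracic replicate 2, 7 with replicate as a term (0.074%) and 35 with the Malat1 level as a term (0.37%). Ebf1 lay at 664, 566 and 713 CPM against 305 to 475 with a median of 402 CPM in I3, with no overlap, and was not called (log2 difference 0.73, adjusted p = 0.699). The 9 astrocyte markers summed to 61.8, 72.7 and 46.7 CPM in the lumbar/sacral libraries and 79.6 to 156 CPM in the rostral ones in I3, with Slc1a2 the most abundant, and their part was not tested.

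In I1, the largest cluster, limma called 0 of 9370 genes (0%), with 155 at an unadjusted p under 0.05. Groups did not overlap in 117 genes (1.25%). With the Malat1 level as a term 3 were called (0.032%). With replicate as a term 9 were called (0.0961%), of which Rmst and Sorcs3 were higher and 7 mitochondrially encoded genes lower. Rmst was at 555, 362 and 400.2 CPM against 139 to 315 with a median of 236 CPM (log2 difference 0.97, adjusted p = 1.0, with replicate 0.0332). Sorcs3 was at 504, 364 and 393 CPM against 174 to 282 with a median of 247 CPM (log2 difference 0.80, adjusted p = 1.0, with replicate 0.0332). Neither overlapped between the groups. Plcl1 lay at 159, 112 and 149 CPM against 139 to 331 with a median of 261 CPM in I1, and the groups overlapped. In I2 it was at 294, 160.4 and 271 CPM against 388 to 625 with a median of 513 CPM (0.483 times the mean; adjusted p = 0.0284, and 0.188 without lumbar/sacral replicate 2, 0.113 without lumbar/sacral replicate 3, 0.0723 without thoracic replicate 1, 0.0584 without thoracic replicate 2, 0.0574 without cervical replicate 3 and 0.0543 without cervical replicate 1). Lists had 0 members called in I1 and, other than Hoxd11, 0 in I3 and I4. With replicate as a term, 5 mitochondrially encoded genes were also called lower in I4 and 1 in I3. In I4 that fit also called 1 spinal interneuron factor and 1 axon guidance gene higher, and 1 ionotropic receptor gene lower.

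**Figure D4:**
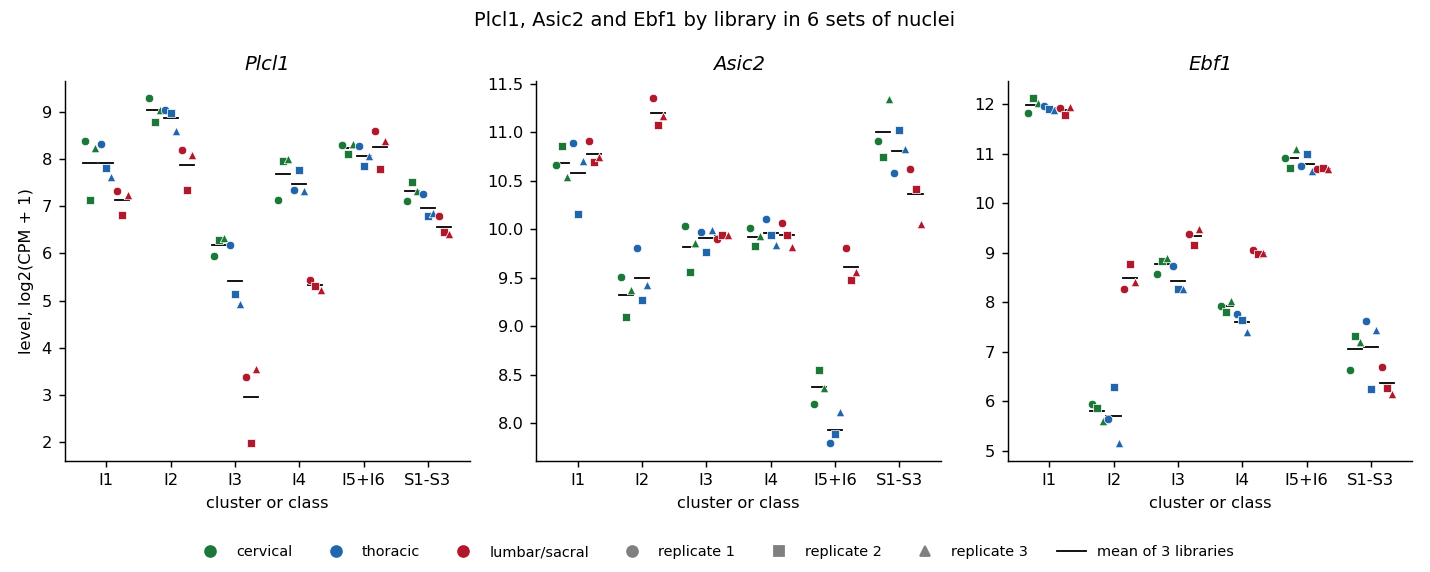
Levels of Plcl1, Asic2 and Ebf1 by library in I1, I2, I3, I4, in I5 and I6 together and in S1 to S3, as log2(CPM + 1). Points are libraries, coloured by region, with bars at the mean of 3; Plcl1 in I4 is at 36.5 to 42.1 CPM in the lumbar/sacral and at 138 to 254 CPM in the rostral libraries, while its groups overlap in I1.

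Whether the lumbar/sacral difference was itself unequal among the 4 clusters was tested on the sums per library and cluster, with the library as a term, so that what the clusters of a library share drops out. Of 11324 genes 183 were called (1.62%), with 989 at an unadjusted p under 0.05, and with nuclei thinned 78 of 12217 were called. In 116 of the 183 it was I2 whose log2 difference lay farthest from the median of the 4 clusters, in 31 I4, in 19 I3 and in 17 I1. Of the 48 genes called in I2, 27 of the 30 higher and 12 of the 18 lower were among them. The count was 195 with replicate as a term (1.72%), and 119, 103 and 109 without lumbar/sacral replicates 1, 2 and 3.

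Ebf1 and Asic2 had the lowest p among the clusters. Ebf1 had log2 differences of -0.06 in I1, 2.64 in I2, 0.73 in I3 and 1.23 in I4 (adjusted p = 1.24e-15). Asic2 had 0.15 in I1, 1.78 in I2, 0.06 in I3 and 0.00 in I4 (adjusted p = 1.24e-15). Kcnh7 had -0.07 in I1, 2.12 in I2, -0.60 in I3 and -0.10 in I4 (adjusted p = 2.19e-12), and Nos1, whose level in I1, I3 and I4 was high in both groups, 0.03 in I1, 2.06 in I2, 0.10 in I3 and -0.10 in I4 (adjusted p = 9.41e-12). Frem1 was tested in I2 alone among the single clusters, and among the 4 clusters its adjusted p was 1.21e-10, where it was again tested only through its lumbar/sacral I2 sums. Kcnip4, which binds Kv4 potassium channels, had -0.01 in I1, 1.29 in I2, 0.13 in I3 and -0.01 in I4 (adjusted p = 1.37e-10). In I2 it was at 2424, 2069 and 2019 CPM against 589.6 to 1590.1 with a median of 839.9 CPM. Prkg1 had -0.23 in I1, 2.08 in I2, 0.06 in I3 and 0.41 in I4 (adjusted p = 1.72e-10). Lrrtm3 had -0.11 in I1, -1.09 in I2, 0.08 in I3 and 0.46 in I4 (adjusted p = 3.03e-09). All 8 were called in each case with a library left out in which they were tested.

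Plcl1 showed another order, with log2 differences of -0.78 in I1, -1.06 in I2, -2.31 in I3 and -2.15 in I4 (adjusted p = 8.86e-05). The fitted values were more negative in I3 and I4 than in I1 and I2, with rostral medians of 261, 513, 65.7 and 189 CPM in I1, I2, I3 and I4. Ltbp1, which holds latent transforming growth factor beta in the matrix, was called in I2 (at 363, 267 and 229 CPM against 55.5 to 123 with a median of 78.2 CPM, adjusted p = 0.00468), but its difference among the clusters was not called (adjusted p = 0.759). Plcl1 and Ltbp1 were chosen here after their values were seen. Over the 30 genes called higher in I2 the median log2 difference was 1.92 in I2, and 0.06, 0.10 and 0.36 in I1, I3 and I4, where 24, 20 and 21 of them were tested. Over the 18 called lower it was -1.16 in I2, and -0.14, -0.16 and -0.22 in the others, where 16 were tested in each. The genes were chosen by their values in I2, so these medians are a description, and the 4 clusters share libraries.

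**Figure D5:**
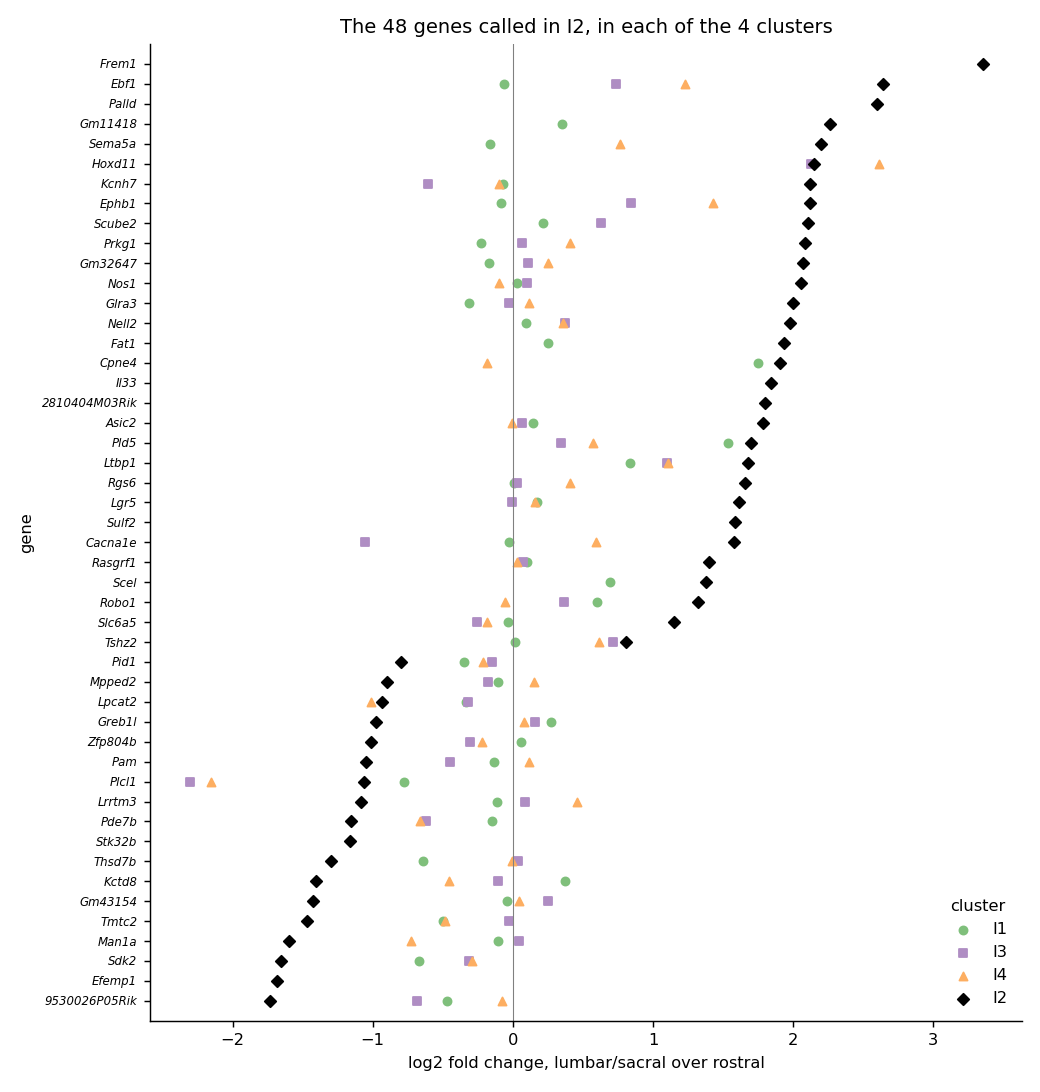
Fitted log2 difference between lumbar/sacral and rostral libraries in each cluster, for the 48 genes called in I2. Each line is a gene, black diamonds are I2, and a cluster in which a gene was not tested has no point; Asic2 has 1.78 in I2 and 0.15 in I1.

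I5 and I6, other cholinergic interneurons with 1128 nuclei, were compared with I1 to I4. Both sums pool clusters, and the part of a change in their mix between regions was not tested. Of 10758 genes, 150 differed in their lumbar/sacral difference between I1 to I4 and I5 and I6 (1.39%), 56 with the larger value in I1 to I4 (0.521%) and 94 with the smaller (0.874%), and 1099 at an unadjusted p under 0.05. Meis1, a TALE cofactor of Hox proteins, had log2 differences of 0.10 in I1 to I4 and -1.41 in I5 and I6 (difference 1.51, SE 0.15, limma, adjusted p = 3.44e-05). It was at 115, 57.7 and 90.2 CPM in lumbar/sacral and 173 to 376 with a median of 226 CPM in rostral I5 and I6, where the groups did not overlap. Plcl1 had -1.22 in I1 to I4 and 0.10 in I5 and I6 (difference -1.32, SE 0.13, limma, adjusted p = 3.44e-05), and it lay at 384, 222 and 331 CPM against 229 to 318 with a median of 291 CPM in I5 and I6, with overlap. Chsy3, a chondroitin sulfate synthase, had -0.37 in I1 to I4 and 1.80 in I5 and I6 (difference -2.17, SE 0.22, limma, adjusted p = 3.44e-05). Kcnip1, another partner of Kv4 potassium channels, had 0.11 in I1 to I4 and -1.0 in I5 and I6 (difference 1.11, SE 0.11, limma, adjusted p = 3.44e-05). Arhgap6 had -0.30 and 1.03, and Slco3a1, an organic anion transporter, -0.08 and 1.22 (adjusted p = 3.44e-05 each). Stk32b, a protein kinase, had -0.73 and 1.37, and Camk2a, the calcium and calmodulin-dependent kinase of synapses, 0.24 and 1.64 (adjusted p = 0.000116 each). All 8 were called whichever library was left out, while the count was 76, 95 and 77 without lumbar/sacral replicates 1, 2 and 3. With all nuclei thinned the count was 66, and with replicate as a term 159 (1.48%).

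Against the skeletal motor neurons S1 to S3, with 5054 nuclei, 20 of 10728 genes differed (0.186%), 10 in each direction (0.0932% each), with 841 at an unadjusted p under 0.05. Here too clusters were pooled, and the part of their mix in each region was not tested. Spock3, a proteoglycan of the brain matrix, had log2 differences of 0.36 in I1 to I4 and -0.53 in S1 to S3 (difference 0.90, SE 0.10, limma, adjusted p = 0.00380). Kcnq5, a potassium channel of the M current, had 0.31 in I1 to I4 and -0.74 in S1 to S3 (difference 1.05, SE 0.13, limma, adjusted p = 0.00405), and Ltbp1 1.05 in I1 to I4 and -0.35 in S1 to S3 (difference 1.40, SE 0.18, limma, adjusted p = 0.00405). Fgf10, a secreted growth factor, had -0.21 in I1 to I4 and 1.39 in S1 to S3 (difference -1.60, SE 0.20, limma, adjusted p = 0.00405), and entered the test only through its lumbar/sacral sums of S1 to S3. Epha6, an ephrin receptor, had -0.06 and -1.10, and Gpc6, a glypican of the cell surface, -0.03 and -0.92 (adjusted p = 0.00405 each, and 0.061 for Gpc6 without lumbar/sacral replicate 2). Kcnc2, a fast potassium channel, had -0.10 and -0.88 (adjusted p = 0.00572, and 0.0577 without lumbar/sacral replicate 3). Akap13, an anchoring protein of protein kinase A, had -0.43 and 0.33 (adjusted p = 0.00716, and 0.0811 without lumbar/sacral replicate 3 and 0.0722 without lumbar/sacral replicate 2). In 6 of these 8 genes, Spock3, Kcnq5, Ltbp1, Epha6, Gpc6 and Kcnc2, the value in S1 to S3 was negative and that in I1 to I4 nearer 0 or positive. The median over all genes was -0.09 here, and 0.02 with sums scaled by the median of ratios, so differences are relative to that shift, and that scaling called 10 with the larger value in I1 to I4 and 6 with the smaller. The count was 36 with replicate as a term (0.336%). With nuclei thinned it was 6, all with the larger value in I1 to I4 and 0 with the smaller. With all counts kept it was 12 without cervical replicate 3, 14 without thoracic replicate 2, 28 without cervical replicate 2, 28 without thoracic replicate 1, and 9, 5 and 10 without lumbar/sacral replicates 1, 2 and 3.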

How the data were processed

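Nuclei were sequenced with the Chromium kit (version 3) and aligned by the authors with Cell Ranger 3.1.0 to GRCm38. The deposited values are a model score, SCTransform-corrected counts that the authors computed separately in each library, as whole numbers; raw counts were not used here. The deposited annotation columns hold other labels, such as cluster and region. Corrected counts of I1 to I4 nuclei were summed per library, and per library and cluster (at least 10 nuclei), and scaled to 1000000. The sums held 1755651 to 3617391 corrected counts.

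Genes reaching 10 CPM in 3 or more sums were tested as log2(CPM + 5) with limma 3.58.1 (trend; R 4.3.3), 3 lumbar/sacral against 6 rostral libraries, two-sided, Benjamini-Hochberg over all genes tested. Differences among clusters or classes were terms of fits with library as a term. The fit was tested on simulated data. Shares were compared by exact permutation with Python 3.11.15, numpy 2.4.6, pandas 2.3.3 and scipy 1.17.1; doublets were scored with scanpy 1.11.5 and figures drawn with matplotlib 3.10.9. Nuclei were thinned to 3400 corrected counts with seed 1.

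The named genes were, in the pooled comparison, the 12 called genes of each direction with the largest log2 difference and no overlap of groups; in each cluster, 5 of each direction; for differences among clusters or classes, the 8 with the lowest p; and for each of 25 lists, at most 4 called members. Gene models without a name took no place. Members and lists were chosen with earlier results of these data known.

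Libraries of 1 replicate share a pool of mice, and replicate was a term in an alternative. Correlations of I1 to I4 profiles, after the mean of each region was taken off, were 0.758, 0.765 and 0.894 between the libraries of replicate 1, 0.494, 0.684 and 0.714 for replicate 2, and -0.151, -0.00539 and 0.811 for replicate 3. Other alternatives were median of ratios scaling, other filters, pseudocounts of 1 and 20, thinning, region terms, each rostral region alone, a minimum fold, equal weight of clusters, no doublets and each library left out. Chosen after seeing the data were a term for Malat1, the libraries low or high in it (under or over 50000 CPM), and leaving out cervical and thoracic replicate 2 together.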

Additional observations from a re-analysis of the deposited data

Results flagged for a closer look

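In 24 groups of 6 rostral libraries checked for a library far from the others, 2 had one. The groups of Hoxd11 are among the 24 and could not have one, since all 6 values were 0. The count is therefore not set against a chance level. The share of I1 among I1 to I4 nuclei was 25.9% in cervical replicate 2, and its gap to the next library was 0.856 of the range of the group. The level of Frem1 in I2 was 1.09 CPM in thoracic replicate 2, and 0 in the other 5, so that any count there would have been marked.

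The following genes stood out because their lumbar/sacral difference was unequal between groups of nuclei, by limma adjusted p. Among I1, I2, I3 and I4 the p was 1.24e-15 for Ebf1 and Asic2, 2.19e-12 for Kcnh7, 9.41e-12 for Nos1, 1.21e-10 for Frem1, 1.37e-10 for Kcnip4, 1.72e-10 for Prkg1 and 3.03e-09 for Lrrtm3. Between I1 to I4 and I5 and I6 it was 3.44e-05 for Meis1, Plcl1, Chsy3, Kcnip1, Arhgap6 and Slco3a1, and 0.000116 for Stk32b and Camk2a. Between I1 to I4 and S1 to S3 it was 0.0038 for Spock3, 0.00405 for Kcnq5, Fgf10, Ltbp1, Epha6 and Gpc6, 0.00572 for Kcnc2 and 0.00716 for Akap13. Frem1 and Fgf10 entered these tests only through lumbar/sacral sums, so each had to differ.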

How the results depend on the processing

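The recomputing of 70 gene results gave 1446 cases. Of these, 1184 kept their side of the threshold, 231 were no longer past it and 31 were newly past it. Among the results with a single direction, 0 reversed it. The 8 results for the difference among I1, I2, I3 and I4 have no single direction. For them only the side of the threshold was compared. Where counts of called genes moved, the cause was not tested unless the setting itself left fewer libraries, nuclei or genes.

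Over I1 to I4 (1 called) the count was 4 with no filter on low values, 5 with equal weight of the clusters, 13 with replicate as a term, 18 with a Malat1 term and 2 among libraries low in Malat1. It was 0 with at least 10 corrected counts in every sum, a pseudocount of 1, thinning, region terms, cervical or thoracic libraries alone, libraries high in Malat1, and without cervical and thoracic replicate 2. In I1 (0) it was 1 with no filter, 9 with replicate and 3 with Malat1. In I2 (48, 30 higher and 18 lower) it was 41 with median of ratios scaling (30 higher and 11 lower), 30 with thinning, 123 with replicate, 21 and 20 against cervical or thoracic libraries alone, 199 with Malat1, 16 among libraries low in it, and 25 without cervical and thoracic replicate 2. In I3 (3) it was 7 with replicate, 35 with Malat1, 9 among libraries high in it and 1 with a pseudocount of 20. It was 0 there with median of ratios scaling, at least 10 corrected counts in every sum, a pseudocount of 1, thinning, region terms, either rostral region alone, and without cervical and thoracic replicate 2. In I4 (5) it was 3 with median of ratios scaling, 3 with a pseudocount of 1, 2 with thinning, 23 with replicate, 1 and 2 against cervical or thoracic libraries alone, 69 with Malat1, and 0 and 19 among libraries low and high in it. Among the clusters (183) it was 117 with at least 10 corrected counts in every sum and 78 with thinning. Against I5 and I6 (150) it was 73 with no filter and 66 with thinning. Against S1 to S3 (20, 10 in each direction) it was 6 with thinning, with 0 of them smaller in I1 to I4, and 36 with replicate. The labels of cervical and thoracic replicate 2, which Hox levels go against, enter the region terms and the comparisons with 1 rostral region. Comparisons with 1 lumbar/sacral library left assume that it varies like the others.

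With each library left out in turn, counts ran from 0 to 3 over I1 to I4, 0 to 0 in I1, 12 to 62 in I2, 0 to 1 in I3, 1 to 5 in I4, 103 to 197 among the clusters, 76 to 180 against I5 and I6 and 5 to 28 against S1 to S3. The difference in the share of I1 to I4 ran from 10.5 to 13.3 points, that of I1 from -2.28 to 1.23, I2 from -5.99 to -1.70, I3 from -0.508 to 0.930 and I4 from 2.32 to 4.29. It reversed for I1 without cervical replicate 2 (-2.28) and lumbar/sacral replicate 1 (-0.178), and for I3 without cervical replicate 1 (-0.508), thoracic replicate 2 (-0.278) and lumbar/sacral replicate 1 (-0.441). Median totals per nucleus were lower in the lumbar/sacral libraries, other than replicate 2, which lay above cervical replicate 1, and genes under 10 CPM, among them 16 Hox genes, were not tested.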

Other observations

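Sst, the precursor of somatostatin and a member of the list of visceral motor neuron markers used here, was looked at after its values were seen. In I1 to I4 it lay at 17.4, 19.0 and 20.1 CPM in the lumbar/sacral libraries and at 1.28 to 9.43 with a median of 4.73 CPM in the rostral ones, with no overlap, and it was not called (log2 difference 1.29, SE 0.28, limma, adjusted p = 0.643). All rostral values were under 10 CPM here and in I2, I3, I4 and I5 and I6, so Sst entered these tests only through its lumbar/sacral values. In I1 it lay at 20.9, 19.1 and 16.0 CPM against 3.15 to 16.2 with a median of 7.64 CPM, and the groups overlapped (log2 difference 0.87, adjusted p = 1.0). In I2 it lay at 14.3, 21.1 and 26.3 CPM against 0 to 7.37 with a median of 2.90 CPM (adjusted p = 0.0668, with replicate as a term 0.0293), and in I3 at 12.1, 17.5 and 29.7 CPM against 0 to 6.83 with a median of 2.68 CPM. In I4 it lay at 18.0, 17.9 and 13.5 CPM against 0 to 5.08 with a median of 3.08 CPM. In I5 and I6 it lay at 19.9, 17.0 and 20.6 CPM against 0 to 8.23 with a median of 3.37 CPM, and in S1 to S3 at 19.2, 18.7 and 12.1 CPM against 2.22 to 13.2 with a median of 5.88 CPM, with overlap (log2 difference 0.97, adjusted p = 0.911). The part of visceral motor neurons in these values was not tested.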
